A study of Homo sapiens with 6 samples.

Results

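IGF2BP3 clusters were examined on 7 genes that carry a growth factor signal from the epidermal growth factor receptor to the MAP kinases, namely *EGFR*, *SOS1*, *NRAS*, *HRAS*, *BRAF*, *MAP2K1* and *DUSP6*. The genes were listed by their role in the cascade, out of the 20046 protein-coding genes of GENCODE release 44, and a cluster was given to a gene when 1 nt or more of it lay in an exon of that gene, strand included. In this cascade the receptor EGFR recruits the exchange factor SOS1, which loads RAS GTPases such as NRAS and HRAS with GTP. GTP-bound RAS activates RAF kinases such as BRAF, which phosphorylate the MEK kinases, among them MAP2K1 (MEK1), and these phosphorylate the ERK kinases. DUSP6 is a phosphatase that removes the phosphates from ERK and is itself induced by ERK signaling. IGF2BP3, an oncofetal RNA-binding protein of the IGF2BP family, binds mature mRNAs largely within their 3′UTRs and is known for effects on mRNA stability and translation in cancer cells.

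The data came from infrared PAR-CLIP, in which 4-thiouridine in RNA is crosslinked to protein by UV light, the complexes are precipitated, and a crosslinked uridine is read as a T to C conversion. All 6 libraries were made from HCT116, a human colorectal carcinoma cell line, of the genotype that the labels give as Tet-OsTIR1-PURO, after 15 h with 100 µM 4-thiouridine and UV light of 365 nm. IGF2BP3 was precipitated in 5 of them, after digestion with RNase I at 0.05/0.05, 0.1/0.025 or 0.05/0.025 and with RNase T1, which cuts after G, at 1/1 or 0.25/0.25, where the values are units per µL in the lysate and on the beads. The IgG control had RNase I at 0.1/0.025. Each condition was 1 library, so no difference between conditions was tested, and the 95% intervals given below cover counting error only. The antibody recognized IGF2BP2 to some extent, by the study's own description. RNA was electroeluted in the libraries of RNase I 0.05/0.05 and of RNase T1 1/1 and taken from crushed gel in the other IGF2BP3 libraries. The electroeluted libraries also had the most cluster reads. Between either of them and the others of its enzyme, gel extraction, RNase concentration and the number of cluster reads cannot be told apart. One methods paragraph writes 0.01 for the in-lysate concentration that the labels give as 0.1.

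In the order RNase I 0.05/0.05, 0.1/0.025 and 0.05/0.025, then RNase T1 1/1 and 0.25/0.25, which every series of 5 values follows, the cluster reads summed to 2362467, 803490, 670712, 1157194 and 182448, and in the IgG library to 324. CPM are reads per 1000000 of these cluster reads, so that 10 CPM stood for 23.6, 8.03, 6.71, 11.6 and 1.82 reads. The cluster data hold no measure of total RNA, so that binding and the abundance of a transcript cannot be told apart in a CPM value, and likewise the size of the mRNA pool and the share of it that was bound. Of 8 epithelial marker genes 6 had clusters, with *EPCAM* in all 5 IGF2BP3 libraries and *VIL1* and *CDX1* in none, and their summed level was 54.8 to 327 CPM. Of 6 markers of blood, stromal, liver and glial cells none had a cluster.

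Of the 7 genes, 6 had clusters with IGF2BP3 and none had a cluster with IgG, where 25 clusters were called in all. By library the genes with a cluster numbered 6, 6, 6, 6 and 5. Of all protein-coding genes 43.7%, 32%, 30.3%, 37.6% and 16.7% had a cluster in these libraries. The libraries held 103, 57, 42, 83 and 11 clusters on these genes, with 2669, 856, 683, 1696 and 157 reads. The summed level was 1130, 1065, 1018, 1466 and 861 CPM. The 6 genes were spread widely within this sum, with *NRAS* alone at more CPM than the other genes together in each RNase I and RNase T1 library. To be a target, a gene needed 1 cluster with both more than 10 CPM and more than 0.5 conversion events (T to C) per read. By this rule 6, 5, 5, 6 and 3 of the 7 genes were targets, beside 21.9%, 21.3%, 22%, 19.6% and 13.7% of all protein-coding genes. Of the protein-coding genes that had a cluster in the library, 50.1%, 66.5%, 72.6%, 52.2% and 82% were targets, which is the nearer background for the 6 genes that had clusters in the first 4 libraries and the 5 that had them with RNase T1 0.25/0.25. *NRAS* and *DUSP6* were targets in all 5 libraries, as were 9.91% of all protein-coding genes. *EGFR*, *BRAF* and *MAP2K1* were targets in 4 libraries and *SOS1* in 3.

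**Figure D1:**
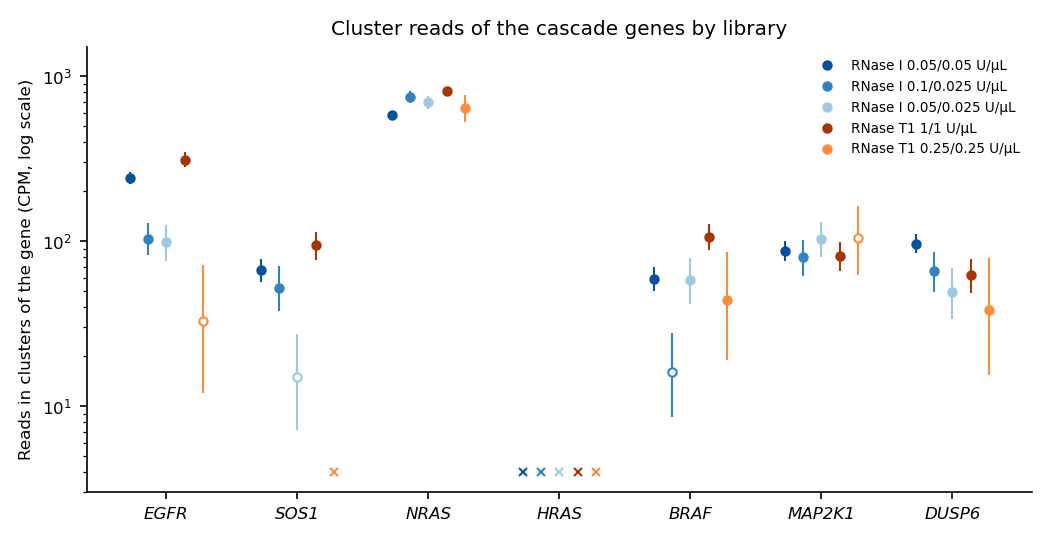
Reads in the clusters of each gene (CPM, log axis) in the 5 IGF2BP3 libraries, with concentrations as in-lysate/on-beads. Bars are exact 95% Poisson intervals, filled points are targets, open points are not, and crosses at the bottom mark genes with no cluster in a library. *NRAS* lies between 579 and 810 CPM, *MAP2K1* between 79.7 and 104 CPM, and *EGFR* spans 32.9 to 312 CPM.

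*EGFR* (ENSG00000146648, chromosome 7, plus strand), the receptor at the top of the cascade, had clusters over most of the length of its 3′UTR, but they were mostly shallow. Its last exon, exon 28, holds the 3′UTR of the canonical transcript at 55205615-55211628 of GRCh38, which is 6014 nt long with the stop codon counted. There were 39, 11, 9, 18 and 1 clusters with 570, 83, 66, 361 and 6 reads. The level was 241 CPM (222 to 262) with RNase I 0.05/0.05 and 312 CPM (281 to 346) with RNase T1 1/1, the libraries from electroeluted RNA. In the libraries from crushed gel it was 103 CPM (82.3 to 128), 98.4 CPM (76.1 to 125) and 32.9 CPM (12.1 to 71.6). The levels from electroeluted RNA thus lay above those from crushed gel with no overlap of the intervals. The electroeluted libraries were also those with the most cluster reads, so that gel extraction and the number of reads cannot be told apart here. The ratio of the highest to the lowest level, 9.49, was the widest of the 5 genes with clusters in every IGF2BP3 library, although the lowest value rests on 6 reads. Clusters covered 41.8%, 10.1%, 7.47%, 11.6% and 0.449% of the 3′UTR. With RNase I 0.05/0.05 the reads were spread over many more nucleotides than with RNase T1 1/1, and the most read cluster held 78 reads (33.0 CPM) and 79 reads (68.3 CPM) in these libraries.

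Clusters of all libraries that overlapped were merged into sites, which gave 45 sites for *EGFR*, of which 29 were seen in 1 library only. Clusters were joined in chains, so that a site seen in several libraries need not hold a base covered in all of them. RNase I libraries alone held 29 sites, RNase T1 libraries alone 6, and 10 were seen with both enzymes. A single site, at chr7:55206317-55206513 and 700 to 896 nt after the stop codon, had clusters in all 5 libraries, with 78, 11, 12, 15 and 6 reads. Within this site the cluster of RNase T1 1/1 (761 to 833 nt) did not overlap that of RNase T1 0.25/0.25 (835 to 861 nt). The conversion events per read of the site were 0.744, 1.00, 0.583, 0.667 and 0.333, so that only the 6 reads of the RNase T1 0.25/0.25 library missed the conversion criterion, and with them *EGFR* missed the call there. A further site, 2157 to 2337 nt after the stop codon, held more reads in the RNase T1 1/1 library, with 68, 25, 12 and 100 reads in the first 4 libraries. The 30-nt stretch of *EGFR* that lay under clusters of the most libraries is inside this latter site, at chr7:55207866-55207895 (GRCh38, plus strand), and was covered in full in 4 libraries. It is shown because it carries 3 copies of tetramers that belong to the CA-rich elements described for IGF2BP proteins, which are in capitals (CATT, CATA and CAGT, searched on the transcribed strand only; they cannot overlap one another).
EGFR stretch under the most libraries: gtCAGTtaaccactttCATTattCATTcac

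Of the 78 *EGFR* clusters 42.3% held CATT, 17.9% CATA and 37.2% CAGT. In all clusters on protein-coding genes CATT was present in 39.5%, 41.6%, 41.0%, 35.2% and 39.99% and CAGT in 34.9%, 35.2%, 34.2%, 11.8% and 18.7%. The *EGFR* values lay close to those of all clusters in the RNase I libraries, from which most of its clusters came. *EGFR* mRNA is also known as a target of the microRNA miR-7, whose mature sequence (RefSeq, GRCh38.p14) is shown with the seed, bases 2 to 8, in capitals.
hsa-miR-7-5p: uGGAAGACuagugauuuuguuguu
The *EGFR* 3′UTR holds 3 matches to this seed (GTCTTCC on the transcribed strand), which 11.4% of the 19936 annotated 3′UTRs also hold at least once. They begin 457, 740 and 2735 nt after the stop codon, and the latter 2, at chr7:55206357-55206363 and chr7:55208352-55208358, are shown in capitals within their surroundings because they lay under IGF2BP3 clusters.
EGFR match 740 nt after the stop codon: ctgacttgtttGTCTTCCattccattgttt
EGFR match 2735 nt after the stop codon: catccctgaagGTCTTCCtgattgatagcc
The first of these lay in the cluster of 78 reads and the second in a cluster of 22 reads, both of the RNase I 0.05/0.05 library. No other library had a cluster over either match, and the match at 457 nt lay under no cluster in any library. In the RNase I 0.05/0.05 library clusters covered 41.8% of this 3′UTR. Of the clusters on 3′UTRs of all genes, 0.852%, 0.744%, 0.719%, 0.364% and 0.536% held a match to the miR-7 seed. A match of 7 letters is a description of the sequence and does not show that a microRNA was bound.

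*SOS1* (ENSG00000115904, chromosome 2, minus strand), the exchange factor that activates RAS, had one of the lowest levels of the 6 genes. Its clusters numbered 16, 6, 2 and 10 in the first 4 libraries, with 158, 42, 10 and 109 reads, and RNase T1 0.25/0.25 had no cluster on it. The levels were 66.9 CPM (56.9 to 78.2), 52.3 CPM (37.7 to 70.7), 14.9 CPM (7.15 to 27.4) and 94.2 CPM (77.3 to 114). The gene was a target with RNase I at 0.05/0.05 and 0.1/0.025 and with RNase T1 at 1/1, by a single cluster in each of these libraries. The RNase I libraries at 0.1/0.025 and 0.05/0.025, which had the same gel extraction, differed 3.51-fold (95% interval of counting error 1.73 to 7.84), on 42 and 10 reads. Its 3′UTR at chr2:38981549-38985826 (4278 nt) was covered to 11.3% with RNase I 0.05/0.05 and to 5.87% with RNase T1 1/1.

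*SOS1* had 19 sites, none of them in all 5 libraries. The most widely seen site, at chr2:38985900-38986000, lay in the coding part of exon 23, the last exon, upstream of the canonical stop codon, and had 20, 6, 5 and 6 reads in the first 4 libraries. Of the 19 sites, 5 lay in the coding part of this exon, and other annotated transcripts of *SOS1* count that part as 3′UTR. CATT was found in 22 of the 34 *SOS1* clusters (64.7%), the highest share of the 6 genes, and CAGT in 5.88%, the lowest. The stretch covered in 3 libraries, at chr2:38984974-38985003 (GRCh38, minus strand), begins 821 nt after the stop codon and is shown, written in the direction of the mRNA, as an example of a CATT element within a pyrimidine-rich surrounding.
SOS1 stretch under the most libraries: tCATTttccctccttctcccacagaagttt

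*NRAS* (ENSG00000213281, chromosome 1, minus strand), a RAS GTPase, was the most strongly represented gene of the cascade. It had 17, 27, 15, 31 and 7 clusters with 1368, 601, 466, 937 and 117 reads. The levels were 579 CPM (549 to 611), 748 CPM (689 to 810), 695 CPM (633 to 761), 810 CPM (759 to 863) and 641 CPM (530 to 769). The highest value was 1.40 times the lowest, so that the level of *NRAS* moved little between libraries whose cluster reads differ far more. Among the protein-coding genes with a cluster it ranked 231 of 8760, 169 of 6411, 197 of 6068, 109 of 7544 and 291 of 3339 by CPM. It was a target in each library by 7, 13, 10, 10 and 3 clusters.

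Clusters on this mRNA were shorter and more numerous with RNase T1 1/1 than with RNase I 0.05/0.05. Any part of the enzyme in this was not tested. The 17 clusters of the RNase I 0.05/0.05 library covered 62.5% of the 3′UTR and reached 440 nt in length, whereas the 31 clusters of RNase T1 1/1 covered 34.3%. Of these RNase T1 clusters 27 (87.1%, Wilson interval 71.1% to 94.9%) overlapped an RNase I 0.05/0.05 cluster by at least 1 nt, but 1 of them did so over at least 50% of both clusters. The median *NRAS* cluster was 88 nt long with RNase I 0.05/0.05 and 31 nt with RNase T1 1/1. This difference in length by itself limits the overlap of 50%, which therefore says little about position. The shallower libraries covered 51.2% and 42.7% with RNase I at 0.1/0.025 and 0.05/0.025 and 9.90% with RNase T1 at 0.25/0.25. Conversion events per read were 0.620, 0.637, 0.620, 0.472 and 0.479, higher in each RNase I library than in either RNase T1 library. Pooled over all clusters on protein-coding genes the values were 0.638, 0.651, 0.608, 0.512 and 0.552, with the same split between enzymes. The most read *NRAS* cluster of the RNase T1 1/1 library, with 163 reads, had 0.436 events per read and missed the conversion criterion, and a cluster of 57 reads in that library had 4 events, or 0.0702 per read, the lowest value on any of the genes.

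The 3′UTR of *NRAS* is 3628 nt long in 3 exons, and nearly all of it lies in the last, exon 7, at chr1:114704469-114708050. Of 16 sites, 4 had clusters in all 5 libraries, more than in any other gene of the cascade. The site 44 to 843 nt after the stop codon, where exon 7 begins, held 648, 248, 244, 213 and 65 reads, and the next, 867 to 1545 nt after it, held 396, 211, 133, 340 and 35. Together they took 76.3%, 76.4%, 80.9%, 59.0% and 85.5% of the *NRAS* reads. The site nearer the stop codon was the larger in 4 libraries, and the order was turned with RNase T1 1/1. The other sites seen in each library lay 1933 to 2141 nt after the stop codon, with 105, 45, 20, 94 and 8 reads, and 2571 to 2936 nt after it, with 124, 63, 48, 189 and 9 reads. No cluster lay beyond 3235 nt.

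**Figure D2:**
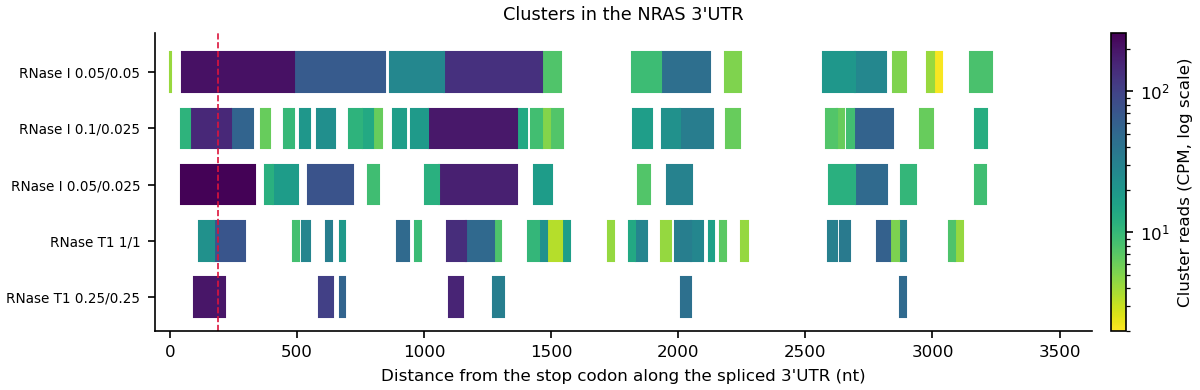
Clusters along the *NRAS* 3′UTR (distance from the stop codon in nt along the spliced mRNA) in the 5 IGF2BP3 libraries, coloured by their reads (CPM, log scale). The dashed line marks the match to the let-7 seed 186 nt after the stop codon, which lies under a cluster in each of the 5 libraries, in 3 of them under the most read cluster of the gene.

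A 30-nt stretch of *NRAS* covered in full in all 5 libraries, at chr1:114707891-114707920 (GRCh38, minus strand), begins 174 nt after the stop codon. It held none of the tetramers CATT, CATA and CAGT, and it held a match to the seed of let-7, a microRNA family known to repress *RAS* mRNAs. Neighbouring bases were covered as widely. The bases 114 to 173 nt after the stop codon also lay under clusters in all 5 libraries, and they held CAGT. The mature let-7a sequence (RefSeq, GRCh38.p14), with its seed in capitals, and the surroundings of the match at chr1:114707902-114707908, with the match in capitals, are shown because this is the only match to either microRNA in the cascade that lay under clusters in more than 1 library.
hsa-let-7a-5p: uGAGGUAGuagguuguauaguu
NRAS match 186 nt after the stop codon: tctcagaataaCTACCTCctcacttggctg
The clusters over this match had 494, 122, 168, 84 and 36 reads, or 209, 152, 250, 72.6 and 197 CPM. They met both target criteria in each library, with 0.595, 0.656, 0.583, 0.548 and 0.528 conversion events per read. They held 36.1%, 20.3%, 36.1%, 8.96% and 30.8% of the *NRAS* reads and were the most read *NRAS* cluster with RNase I 0.05/0.05, RNase I 0.05/0.025 and RNase T1 0.25/0.25. These clusters were 440, 158, 290, 119 and 121 nt long, so that the match is a small part of each. A let-7 seed match (CTACCTC, transcribed strand) is present in 9.58% of annotated 3′UTRs and in 0.626%, 0.491%, 0.528%, 0.468% and 0.488% of the clusters on 3′UTRs. *BRAF* had the only other match to let-7 in the cascade, in its alternative 3′UTR, and it lay under no cluster. No RNA bound to Argonaute was measured in these libraries.

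*HRAS* (ENSG00000174775, chromosome 11, minus strand), the other RAS GTPase of the list, had no cluster in any of the libraries. It was 1 of the protein-coding genes outside the 9353 that had a cluster in at least 1 IGF2BP3 library. Its 3′UTR at chr11:532242-532638 is 289 nt long with a GC content of 60.6%, whereas the 3′UTRs of the other 6 genes are 932 to 7170 nt long with 35.1% to 42.8% GC. Any part of length, base composition or mRNA abundance in the lack of clusters was not tested.

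*BRAF* (ENSG00000157764, chromosome 7, minus strand), a RAF kinase, had 14, 2, 6, 12 and 1 clusters with 140, 13, 39, 123 and 8 reads. The levels were 59.3 CPM (49.8 to 69.9), 16.2 CPM (8.61 to 27.7), 58.1 CPM (41.3 to 79.5), 106 CPM (88.3 to 127) and 43.8 CPM (18.9 to 86.4). It was a target in all but the RNase I 0.1/0.025 library, where its 2 clusters had 6 and 7 reads and neither reached 10 CPM. The RNase I libraries at 0.1/0.025 and 0.05/0.025 differed 0.278-fold (0.136 to 0.532), in the opposite direction to *SOS1* in the same pair.

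The clusters of *BRAF* did not lie where the canonical annotation places its 3′UTR. The 3′UTR of the canonical transcript, at chr7:140730665-140734599 (3935 nt), had 0 clusters in all libraries together. An alternative last exon further downstream, with a 3′UTR at chr7:140719327-140726496 (7170 nt, transcript ENST00000496384), had 28 of the 35 clusters and 269 of the 323 reads (83.3%). By library the alternative 3′UTR held 107 of 140, 13 of 13, 33 of 39, 108 of 123 and 8 of 8 reads. The same exon thus took most reads in each library and with both enzymes. The remaining 4 of the 20 *BRAF* sites lay in coding exons, of which the one in exon 3, at chr7:140834675-140834754, was seen in 3 libraries. When clusters were given to the canonical transcript alone, *BRAF* lost its call as a target in each of the 4 libraries.

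**Figure D3:**
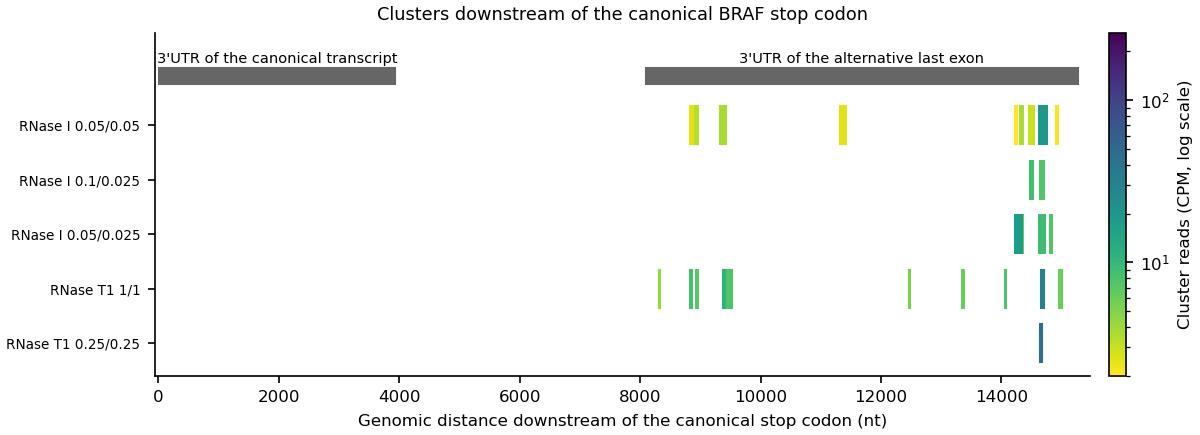
Clusters downstream of the canonical *BRAF* stop codon (genomic distance in nt) in the 5 IGF2BP3 libraries, coloured by their reads (CPM, log scale), with both annotated 3′UTRs drawn as grey bars. The canonical 3′UTR is empty and the clusters lie in the alternative last exon, most densely near its far end.

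Within the alternative 3′UTR, 6 of 16 sites and 167 of 269 reads (62.1%) lay more than 6000 nt after its stop codon, in an exon that ends 7167 nt after it. The only *BRAF* site found in all 5 libraries, at chr7:140719842-140719979, is among them, 6515 to 6652 nt after the stop codon. It had 47, 6, 12, 34 and 8 reads with 0.723, 0.667, 0.500, 0.559 and 0.75 conversion events per read. The 30-nt stretch under the most libraries within it, at chr7:140719920-140719949 (GRCh38, minus strand), is shown because it lies in the exon that the canonical transcript lacks. It held none of the tetramers, whereas 42.9% of all *BRAF* clusters held CATT.
BRAF stretch under the most libraries: tcctgtttcaccactccaaaccttatggcg
The pseudogene *BRAFP1* had 1 cluster of 5 reads with RNase T1 1/1, and any sharing of reads between it and *BRAF* was not tested.

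*MAP2K1* (ENSG00000169032, chromosome 15, plus strand), which encodes the kinase MEK1, had the shortest 3′UTR of the genes with clusters, 932 nt at chr15:66490613-66491544. It had 5, 6, 7, 6 and 1 clusters with 205, 64, 69, 94 and 19 reads. The levels were 86.8 CPM (75.3 to 99.5), 79.7 CPM (61.3 to 102), 103 CPM (80.0 to 130), 81.2 CPM (65.6 to 99.4) and 104 CPM (62.7 to 163). These intervals all overlapped, and the highest level was 1.31 times the lowest, the narrowest range of the 5 genes with clusters in each library. Clusters covered 62.8%, 52.4%, 48.4% and 30.2% of the 3′UTR in the first 4 libraries and 3.76% in the last.

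The most read site of *MAP2K1* nevertheless lay elsewhere with RNase T1 than with RNase I. Any part of the enzyme in this was not tested, since each condition was 1 library and RNase T1 0.25/0.25 had only 19 reads on the gene. The site 30 to 447 nt after the stop codon held 140, 35, 45 and 18 reads in the first 4 libraries, more than any other *MAP2K1* site with RNase I. The site 716 to 821 nt after it, at chr15:66491331-66491436, was the only one seen in all 5 libraries and held 19, 13, 10, 44 and 19 reads, the most with either RNase T1 concentration. With RNase T1 0.25/0.25 it was the only cluster of the gene, and at 0.474 conversion events per read it missed the criterion of more than 0.5, which cost *MAP2K1* its call there. The stretch under the most libraries, at chr15:66491376-66491405 (GRCh38, plus strand), begins 761 nt after the stop codon and holds CATA.
MAP2K1 stretch under the most libraries: tcggatttatctttcccCATAtccaagtac
The processed pseudogene *MAP2K1P1* had 1 cluster of 6 reads with RNase I 0.05/0.05, against 205 reads on *MAP2K1* itself.

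*DUSP6* (ENSG00000139318, chromosome 12, minus strand), the phosphatase that acts back on ERK, was with *NRAS* the only gene called in each library. It had 12, 5, 3, 6 and 1 clusters with 228, 53, 33, 72 and 7 reads. The levels were 96.5 CPM (84.4 to 110), 66.0 CPM (49.4 to 86.3), 49.2 CPM (33.9 to 69.1), 62.2 CPM (48.7 to 78.4) and 38.4 CPM (15.4 to 79.1). The value of the RNase I 0.05/0.05 library was the highest, with an interval that met only that of RNase I 0.1/0.025, and the intervals of the others overlapped. The call in the RNase T1 0.25/0.25 library rests on a single cluster of 7 reads with 0.714 conversion events per read.

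All *DUSP6* clusters on the 3′UTR (chr12:89347235-89349256, 2022 nt) lay within 1012 nt of the stop codon, so that its distal part was free of clusters in each library. Of 10 sites, 7 lay in the 3′UTR and 3 in the coding part of exon 3. None was seen with RNase T1 alone, and each of the 6 RNase T1 1/1 clusters overlapped one of RNase I 0.05/0.05. The site in all 5 libraries, at chr12:89348361-89348619 and 635 to 893 nt after the stop codon, held 71, 15, 16, 32 and 7 reads. CATT was rare, in 2 of 27 *DUSP6* clusters (7.41%), the lowest share of the 6 genes, and any of the 3 tetramers was found in 13 of the 27. The stretch under the most libraries, at chr12:89348526-89348555 (GRCh38, minus strand), holds none and is shown beside the motif-bearing stretches of *EGFR* and *SOS1* for that reason.
DUSP6 stretch under the most libraries: gacatctttacggacactattatcactaag

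**Figure D4:**
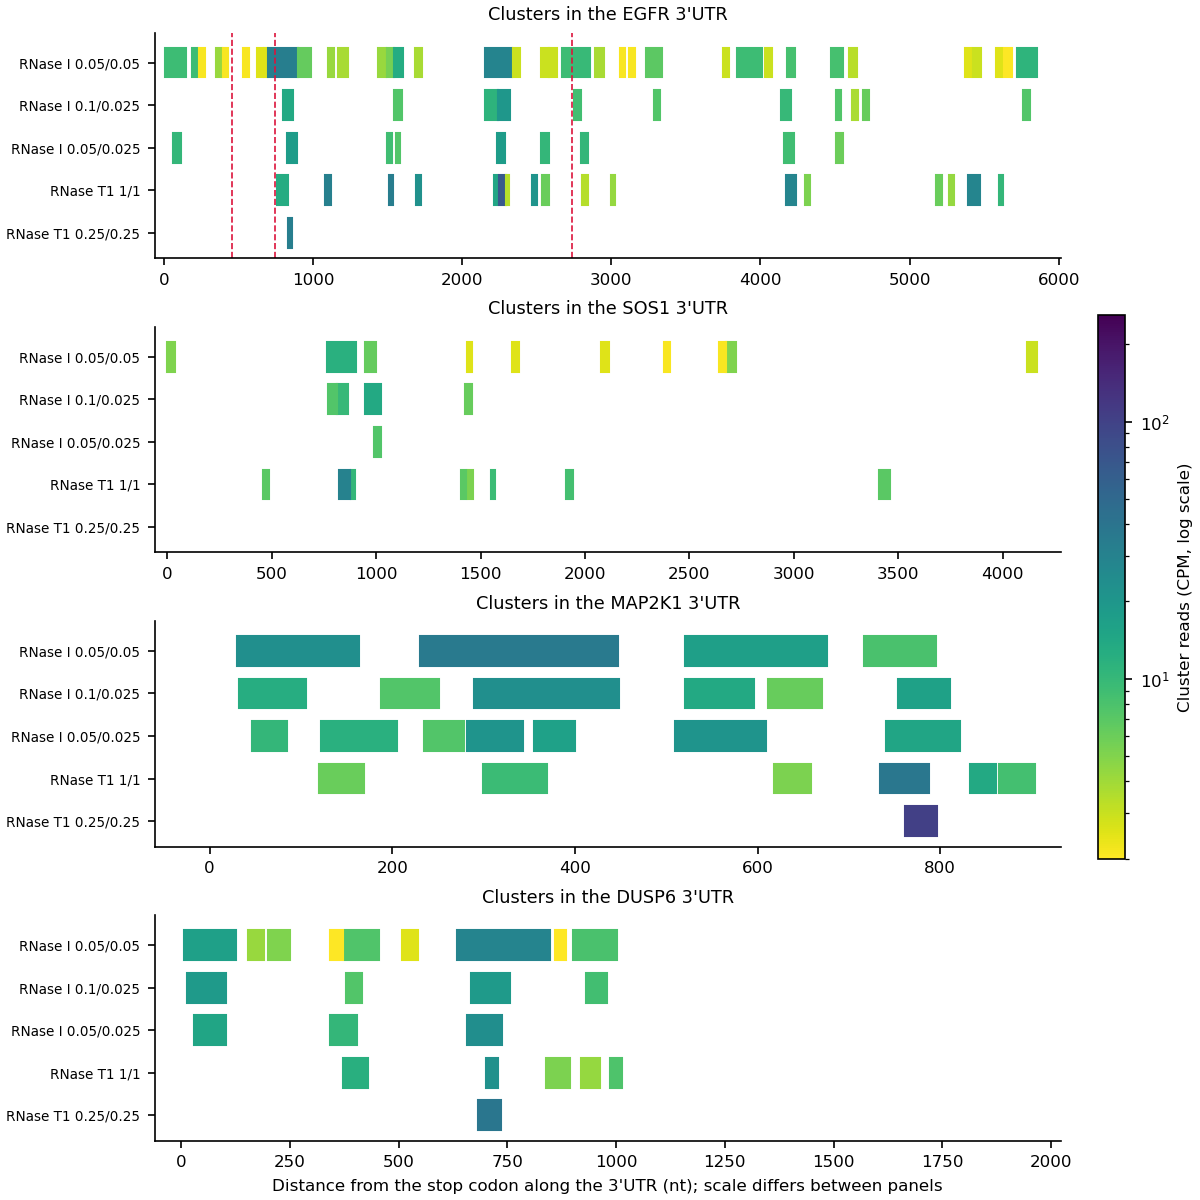
Clusters along the 3′UTRs of *EGFR*, *SOS1*, *MAP2K1* and *DUSP6* (distance from the stop codon in nt, with its own scale in each panel) in the 5 IGF2BP3 libraries, coloured by their reads (CPM, log scale). Dashed lines in *EGFR* mark matches to the miR-7 seed, and the *DUSP6* clusters end 1012 nt after the stop codon in a 3′UTR of 2022 nt.

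Levels were compared between the genes per kb of 3′UTR. *NRAS* had the highest density, with 158, 206, 187, 223 and 177 CPM per kb, and *MAP2K1* followed in each library with 90.4, 85.5, 110, 87.2 and 112 CPM per kb. *MAP2K1*, which by total CPM was below *EGFR* in the RNase I 0.05/0.05, RNase I 0.1/0.025 and RNase T1 1/1 libraries, was thus above it once 3′UTR length was taken into account. *EGFR* had 39.3, 17.2, 16.4, 50.7 and 5.47 CPM per kb and *DUSP6* 37.5, 26.5, 24.3, 25.6 and 18.97, and their order turned between libraries. *SOS1* had 10.1, 8.73, 1.74 and 19.8 CPM per kb in the first 4 libraries, and *BRAF* had 6.32, 2.26, 6.86, 13.02 and 6.12 CPM per kb of the alternative 3′UTR. These were the lowest densities in the first 4 libraries, and their order also turned between libraries. In the last library *BRAF*, with 8 reads, stood above *EGFR*, with 6.

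The electroeluted libraries, RNase I 0.05/0.05 and RNase T1 1/1, were set side by side because they shared the gel extraction. The genes together had 0.771 times the CPM with RNase I (95% interval of counting error 0.725 to 0.820), from clusters that covered 8128 nt at 13.9 CPM per 100 nt with RNase I and 3233 nt at 45.3 CPM per 100 nt with RNase T1. The ratio was 0.773 (0.677 to 0.885) for *EGFR*, 0.710 (0.553 to 0.915) for *SOS1*, 0.715 (0.658 to 0.778) for *NRAS* and 0.558 (0.434 to 0.716) for *BRAF*. It was 1.07 (0.833 to 1.38) for *MAP2K1* and 1.55 (1.19 to 2.05) for *DUSP6*. The phosphatase was therefore alone in having more CPM with RNase I beyond counting error. Over the 7106 genes with clusters in both libraries the median ratio was 0.967 with quartiles of 0.600 and 1.63, so that 5 of the 6 genes lay between these quartiles and *BRAF* just below them. With 1 library for each condition the spread between repeated libraries is unknown.

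Across the 6 genes an RNase I 0.05/0.05 cluster was met by 59 of the 83 clusters of RNase T1 1/1 (71.1%, Wilson interval 60.6% to 79.7%), and 40 of the 103 RNase I clusters (38.8%, 29.99% to 48.5%) overlapped one of RNase T1. Over the clusters on all protein-coding genes these shares were 76.9% and 38.1%, near those of the cascade genes. Of 116 sites on the 6 genes, 8 were seen in all 5 libraries, 69 in 1 library, 32 with both enzymes, 61 with RNase I alone and 23 with RNase T1 alone. As shares these were 6.90%, 59.5%, 27.6%, 52.6% and 19.8%, beside 6.71%, 54.5%, 31.6%, 55.7% and 12.6% of the 81580 sites on all protein-coding genes, with 3 RNase I and 2 RNase T1 libraries in both. Sites in the canonical 3′UTR numbered 82, those in the alternative *BRAF* 3′UTR 16 and those in coding sequence 18, with 2 spanning a stop codon. Clusters that overlapped a 3′UTR of any annotated transcript held 96.6%, 98.8%, 97.7%, 98.2% and 100% of the reads on these genes, compared with 87.0%, 88.6%, 87.6%, 91.2% and 92.0% of the reads on all protein-coding genes. The genes differed in this share. With RNase I 0.05/0.05 it was 1351 of 1368 reads on *NRAS*, 564 of 570 on *EGFR*, 158 of 158 on *SOS1* and 205 of 205 on *MAP2K1*. In the same library it was 120 of 140 reads on *BRAF* and 179 of 228 on *DUSP6*. These shares depend on the annotation, since coding parts of some transcripts count as 3′UTR of others. With coding sequence assigned before 3′UTR, they were 90 of 158 reads on *SOS1*, 144 of 205 on *MAP2K1* and 107 of 140 on *BRAF*. They were 179 of 228 on *DUSP6*, 1341 of 1368 on *NRAS* and 558 of 570 on *EGFR*, so that *SOS1* then had the lowest share. Clusters ended on G in 17.5%, 14.04%, 16.7%, 98.8% and 90.9% of cases on the cascade genes and in 13.3%, 12.3%, 12.1%, 94.8% and 92.0% of all clusters on protein-coding genes, so that the cut after G by RNase T1 was seen on these mRNAs as on others.

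**Figure D5:**
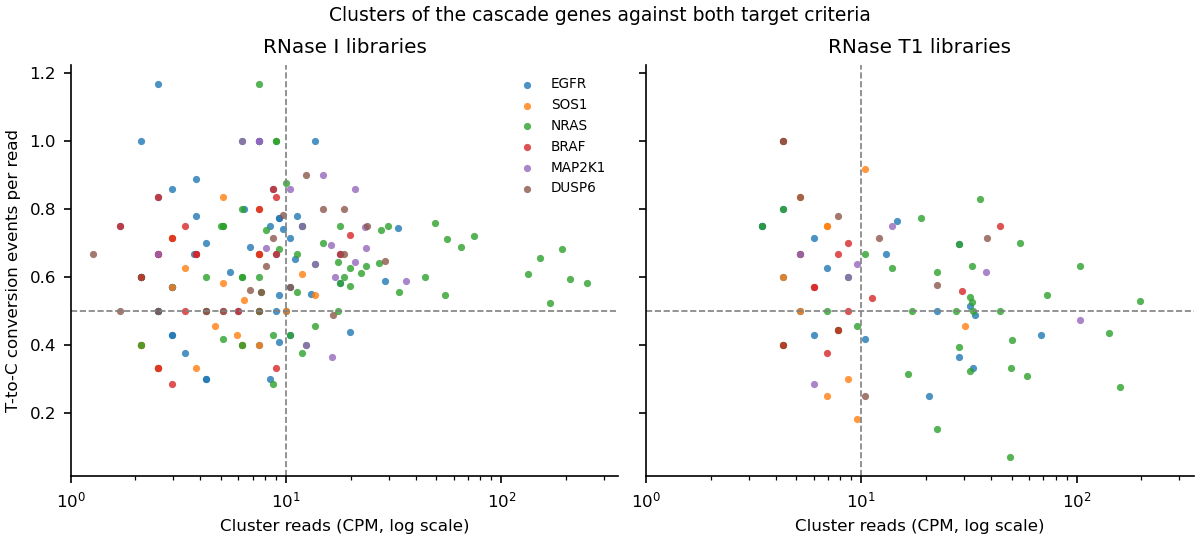
Each cluster of the cascade genes by its reads (CPM, log axis) and its T to C conversion events per read, for the 3 RNase I libraries on the left and the 2 RNase T1 libraries on the right. Dashed lines mark 10 CPM and 0.5 events per read, and clusters to the upper right of both make a gene a target, as 17, 22, 23, 21 and 5 clusters did in the 5 libraries.

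Of the clusters on these genes, 68.9%, 71.9%, 76.2%, 57.8% and 45.5% had more than 0.5 conversion events per read, and 75.3%, 76.4%, 69.8%, 54.6% and 59.5% of all clusters on protein-coding genes did. Pooled over the genes there were 0.619, 0.651, 0.634, 0.504 and 0.497 events per read. The RNase T1 values were lower than the RNase I values on the cascade genes and on all genes. The most read *NRAS* cluster of RNase T1 1/1 lay below 0.5 events per read, whereas each *NRAS* cluster above 100 CPM in the RNase I libraries lay above it. With RNase T1 0.25/0.25 the *NRAS* clusters of 197 and 104 CPM lay above 0.5, at 0.528 and 0.632. The *NRAS* cluster of 159 CPM in that library lay below it, at 0.276.

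The wider pathway was read from a list of 61 genes around the cascade (ligands, receptors, adaptors, RAS proteins, GTPase-activating proteins, kinases, scaffolds, inhibitors and immediate early genes), which excludes the genes described so far. Of these, 36, 31, 30, 29 and 26 were targets (59.0%, 50.8%, 49.2%, 47.5% and 42.6%), against the shares of 21.9%, 21.3%, 22%, 19.6% and 13.7% of all protein-coding genes. In all, 24 were targets in each library and 37 in at least 1, beside 9.91% and 29.5% of all protein-coding genes. The list held 6 genes with no cluster (*ERBB4*, *BTC*, *GAB2*, *EGF*, *DUSP9* and *IER3*). Among only the protein-coding genes with a cluster in the library, 50.1%, 66.5%, 72.6%, 52.2% and 82% were targets. That share was not computed for the list. The median level over the list, as the mean over the 5 libraries, was 31.6 CPM, compared with 0 over all 20046 genes and 19.7 CPM over the 9353 with a cluster. The part of mRNA abundance in these shares was not tested.

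High levels on the list were found at the growth factor and feedback ends of the pathway. *EREG*, which encodes epiregulin, a ligand of EGFR, had a mean of 3832 CPM and between 3050 and 4774 CPM in single libraries. *ERRFI1*, whose product inhibits the EGFR kinase, followed with 2622 CPM and *PHLDA1*, an immediate early gene, with 2313 CPM. The receptor gene *MET* had 765 CPM and the adaptor gene *SHC1* 732 CPM. Each of these genes was a target in all 5 libraries, and their mean levels lay above the 695 CPM of *NRAS*, the highest of the cascade.

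Some genes of the list were called with one enzyme only. *ARAF*, which encodes a RAF kinase, and *DUSP7*, a phosphatase gene related to *DUSP6*, were targets in each RNase I library and in neither RNase T1 library, and no gene of the list showed the reverse. The share of all protein-coding genes called in this way was not computed. Of all protein-coding genes 21.9%, 21.3% and 22% were targets with RNase I, against 19.6% and 13.7% with RNase T1. A lean of the list toward RNase I therefore cannot be told from that of all genes. *ARAF* had 59.3, 29.9, 34.3 and 16.4 CPM and *DUSP7* 72.4, 51.0, 49.2 and 10.4 CPM in the first 4 libraries, and neither had a cluster in the last. *BRAF* was unlike *ARAF*, with its highest level, 106 CPM, in the RNase T1 1/1 library.

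For each gene with clusters the protein-coding gene with the most similar levels was sought among 9347 others, by Euclidean distance over the 5 libraries in log2(CPM + 1). The nearest were *VCAN* to *EGFR* (distance 0.52), *POU2F1* to *SOS1* (0.19), *CCNG1* to *NRAS* (0.30), *CDR2* to *BRAF* (0.49), *NCOR1* to *MAP2K1* (0.28) and *GBF1* to *DUSP6* (0.45). *VCAN*, for instance, had 206, 97.1, 88.0, 347 and 43.8 CPM. Like *EGFR* it had its high values in the electroeluted libraries, which also had the most cluster reads. *POU2F1* had no cluster with RNase T1 0.25/0.25, like *SOS1*. None of these genes belongs to the list of the pathway.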

How the data were processed

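By the methods and the submitters' processing notes, the authors took reads 18 to 45 nt long (Trimmomatic 0.30) to GRCh38 with Bowtie 0.12.7, with at most 3 mismatches, removed duplicates by molecular identifier (UMI-tools 1.1.1) and ran PARalyzer 1.5 on each library alone. The deposited values are raw counts per cluster of reads and of conversion and non-conversion events, and counts of deduplicated reads stand for molecules. The deposited mode score, a fraction, was not used.

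From these counts CPM, conversion events per read, targets, merged sites, 3′UTR coverage and overlaps were computed in Python 3.11.15 (scipy 1.17.1, pandas 2.3.3, numpy 2.4.6), with samtools 1.23.1 and pysam 0.24.0 for the genome and matplotlib 3.10.9 for plots. The CPM denominator was the sum of cluster reads, which is not the library size, and PARalyzer lists only clusters above its own minimum. Intervals of CPM are exact Poisson intervals, those of shares Wilson intervals and those of CPM ratios exact binomial intervals, all at 95% and for counting error only. All cluster sequences on the genes were identical to GRCh38. As a check of the code, clusters with values away from both target criteria were simulated. Of these, 100 of 100 placed targets were called, and 0 of 100 with few reads and 0 of 100 on the wrong strand. Calls near the thresholds were not tested.

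The genes and lists were chosen with earlier results of these data known. Named were the 7 genes, their pseudogenes with clusters, the nearest gene of each, and of the pathway list the 6 genes with the highest mean CPM and those called with 1 enzyme in each of its libraries and not with the other, except items not reported here. The alternatives changed both target criteria, the CPM denominator, the gene assignment, the order of features, the clusters used and the overlap.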

Additional observations from a re-analysis of the deposited data

How the results depend on the processing

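No paired analysis was possible because each condition was 1 library. Of 69 settings of the counts, shares and ratio above, 44 stayed within the tolerance and 25 moved, where the tolerance was 1.5-fold for a count of targets and the 95% interval of the reported value for a share or ratio, so that a fall from 6 targets to 4 counted as within it. At more than 0.75 events per read 0, 2, 3, 3 and 0 genes were targets, beside 6.73%, 12.2%, 11.5%, 7.31% and 7.89% of all protein-coding genes, and at more than 0.25 the count with RNase T1 0.25/0.25 was 5, beside 16.4%. Read as a majority of the T events converted, the criterion left 0 targets in each library, and at most 0.00998% of all protein-coding genes passed it. Above 20 CPM there were 4, 2, 3, 5 and 3 targets, beside 14.7%, 14.1%, 13.7%, 11.03% and 13.5% of all genes, with *SOS1* and *BRAF* lost in RNase I 0.05/0.05 and *SOS1* in RNase T1 1/1. At 20 reads or more per cluster there were 6, 1, 1, 5 and 1 targets, beside 23.9%, 12.4%, 10.5%, 13.4% and 2.52%, and a lone target was *NRAS* each time. Above 5 CPM *BRAF* was gained with RNase I 0.1/0.025 and *SOS1* with RNase I 0.05/0.025.

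With only clusters of more than 10 CPM the summed ratio of RNase I 0.05/0.05 to RNase T1 1/1 was 0.64, the 3′UTR share of reads was 100% and 99.1% in these libraries, and CATT was in 61.1% of the RNase I 0.05/0.05 clusters on these genes. No share over all protein-coding genes was computed at this cut, and the length of the clusters was not taken into account. With coding sequence assigned before 3′UTR, the share of reads was 90.6%, 96.3%, 95.9% and 96.8% in the first 4 libraries. The share over all protein-coding genes was not computed for this order. With a reciprocal overlap of at least 50%, the share of RNase T1 1/1 clusters with an RNase I 0.05/0.05 partner was 16.9%, beside 8828 of 49035 clusters over all protein-coding genes. In the RNase T1 0.25/0.25 library each cluster passed 10 CPM, since its smallest cluster had 2 reads.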
